A study of Mus musculus with 6 samples.

Results

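The genes described here encode the proteins of the mitochondrial ribosome (mitoribosome), and they were taken from the counts of the prefrontal cortex of Pla2g4e knockout (KO) and wild type (WT) mice by their symbols. Every symbol made of Mrpl or Mrps, a number and at most 1 further letter was a member, which gave 78 of the 56923 genes in the tables, 49 with an Mrpl symbol (large subunit) and 29 with an Mrps symbol (small subunit). The rule itself uses symbols and no measured value. The members lie on 17 chromosomes, and 4 of them are on chromosome 2, the chromosome that also carries Pla2g4e.

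The mitoribosome translates the few messenger RNAs that the mitochondrial genome encodes, all of them for membrane subunits of the oxidative phosphorylation complexes. Its large subunit joins amino acids and passes the growing chain into the inner membrane, while its small subunit binds the messenger RNA and decodes it. Its RNAs come from the mitochondrial genome, but all of its proteins are encoded in the nucleus, made in the cytosol and imported. Part of them descend from the bacterial ribosome and part were gained in mitochondria. Neurons depend heavily on oxidative phosphorylation, and inherited defects of mitoribosomal proteins often affect the brain.

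RNA was measured in 6 libraries, 3 labelled KO and 3 labelled WT, made from polyadenylated RNA with a kit that keeps the strand. Pla2g4e encodes a calcium-dependent phospholipase that forms N-acylphosphatidylethanolamines. Per the methods of the study, the constitutive knockout carries the tm2a allele on a C57BL/6N background with the A tm1Brd allele, in which splicing to a LacZ trapping cassette placed early in the gene is predicted to leave no product, and WT littermates served as controls in the mouse work. The sources used here give no age, sex or litter for these samples and no treatment was applied. The labels do not say that each library is a separate mouse, so the p-values measure only the spread between these libraries, and in whole tissue fewer cells of a type and less RNA per cell cannot be told apart.

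Pla2g4e itself was at 5.95, 8.12 and 7.97 CPM (fragments per 1e6 fragments of the library, after scaling) in KO replicates 1 to 3 and at 7.84, 11.3 and 13.2 CPM in WT replicates 1 to 3. The groups overlapped through the library labelled WT replicate 1, and the log2 fold change was -0.55 (SE 0.21, limma-voom unadjusted p = 0.0205, adjusted p = 0.635). These counts are of the whole gene and can include exons that lie after the trapping cassette, so they check the labels only weakly. Counts of single exons were not analysed here. Library totals ran from 11792463 to 14594230 fragments. Xist was at 20521 and 12365 fragments in KO replicate 1 and WT replicate 1, with at most 2 Y-linked fragments there, whereas the other 4 libraries had 2221 to 2383 Y-linked fragments and at most 3 of Xist. All 12 neuron markers were present, at a mean of at least 83.9 CPM. The members took 0.172% to 0.192% of the fragments of a library, the median member had 278 fragments in a library, and 77 of the 78 had at least 50 in every library.

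The exception was Mrpl53, with 7, 2 and 1 fragments in the KO libraries against 2, 0 and 4 in those of WT. On the same strand, 88.0% of its exonic bases are shared with the gene model Gm42688, and fragments over both models were not counted. Its level here is that of the unshared bases, so its fold change is not given, although it stays among the 78 genes tested and in every count below. Another 7 members shared a smaller part of their exons in this way, up to 37.0% for Mrps34.

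Promoters were read for the members with an entry in RefSeq (GRCm38.p6, an earlier build than the GRCm39 of the counts), as the 250 bases before and 50 bases after each annotated start. An entry was found for 69 of the 78 members, 43 of the large and 26 of the small subunit, and there was none for Mrpl4, Mrpl13, Mrpl15, Mrpl19, Mrpl38, Mrpl54, Mrps28, Mrps34 and Mrps35. Mrpl48 had 4 such windows, Mrpl2 had 3 and Mrps16 had 2, and the other members had 1 each, including those printed here. The 4 sequences below are shown because Mrpl42 and Mrpl21 had the lowest p-values of all members in the comparison of KO with WT, Mrps12 had the lowest among the small subunit, and Mrps33 had the highest fold change. They run 5′ to 3′ on the strand of the gene, and capitals mark matches, on either strand, to the letters of 4 motifs named in the next paragraph. Mrpl42 is at chr10:95501900-95502199 on the minus strand, Mrpl21 at chr19:3282792-3283091 on the plus strand, Mrps12 at chr7:28741772-28742071 on the minus strand and Mrps33 at chr6:39810887-39811186 on the minus strand.
Mrpl42: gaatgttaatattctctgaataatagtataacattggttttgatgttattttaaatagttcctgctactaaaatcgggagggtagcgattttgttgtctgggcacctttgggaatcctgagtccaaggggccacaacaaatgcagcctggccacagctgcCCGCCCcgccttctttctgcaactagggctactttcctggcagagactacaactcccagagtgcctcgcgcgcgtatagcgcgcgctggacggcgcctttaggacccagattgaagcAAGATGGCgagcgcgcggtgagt
Mrpl21: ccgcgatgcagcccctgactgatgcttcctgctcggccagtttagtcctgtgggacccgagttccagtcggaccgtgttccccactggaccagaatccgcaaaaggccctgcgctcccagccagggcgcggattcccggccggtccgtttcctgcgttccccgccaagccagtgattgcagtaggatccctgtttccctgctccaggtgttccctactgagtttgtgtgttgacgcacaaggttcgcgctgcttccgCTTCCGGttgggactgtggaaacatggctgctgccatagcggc
Mrps12: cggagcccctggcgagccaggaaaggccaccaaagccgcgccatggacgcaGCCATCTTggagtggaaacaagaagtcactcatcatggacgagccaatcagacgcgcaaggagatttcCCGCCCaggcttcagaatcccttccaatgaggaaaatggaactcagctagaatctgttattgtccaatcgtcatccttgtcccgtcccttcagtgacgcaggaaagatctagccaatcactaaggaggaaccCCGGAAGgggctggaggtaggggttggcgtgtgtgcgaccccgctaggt
Mrps33: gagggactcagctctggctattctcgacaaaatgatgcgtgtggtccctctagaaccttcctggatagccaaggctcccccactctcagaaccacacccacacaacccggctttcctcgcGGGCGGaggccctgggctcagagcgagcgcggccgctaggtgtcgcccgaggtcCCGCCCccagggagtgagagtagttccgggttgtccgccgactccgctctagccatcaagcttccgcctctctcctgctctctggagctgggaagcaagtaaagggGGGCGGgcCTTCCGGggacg

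Both strands of each promoter were searched for the letters of 5 motifs, and a gene was counted when any of its windows held them. More than 1 window was listed for 4.35% of the members with an entry, against 15.4% of all genes and 20.0% of the tested genes. The letters CCGGAAG, a core bound by factors of the ETS family such as GABPA, were in 26 of the 69 member promoters (37.7%), against 9.93% of the promoters of all 27025 genes with an entry and 17.0% of those of the 12821 tested genes with one. The letters GCGCANGCGC of nuclear respiratory factor NRF1 were in 13 (18.8%, against 5.19% and 9.76%), and AAGATGGC of YY1 was in 12 (17.4%, against 3.19% and 4.54%). GGGCGG of Sp1 was in 34 (49.3%, against 38.2% and 64.2%) and TATAAA, the TATA box, in 5 (7.25%, against 15.7% and 9.48%). The members thus held ETS, NRF1 and YY1 letters at a higher share than the promoters of tested genes, and Sp1 and TATA letters at a lower one. The order was the same when each window was counted on its own, an alternative chosen after seeing the data, with ETS letters in 34.7% of 75 member windows against 14.4% of windows of tested genes, NRF1 letters in 17.3% against 8.22%, YY1 letters in 16.0% against 3.71%, Sp1 letters in 52.0% against 57.4% and TATA letters in 6.67% against 7.93%. An ETS and an Sp1 match overlapped in 2 members, and no other pair of motifs overlapped. In the sequences above, Mrpl42 had a YY1 match just past its start (28 to 35) and an Sp1 match, Mrpl21 an ETS match (8 to 14), Mrps12 an ETS match (2 to 8) with a YY1 and an Sp1 match upstream, and Mrps33 an ETS match (39 to 45) and 3 Sp1 matches.

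By subunit, ETS letters were in 15 of 43 large subunit promoters (34.9%) and 11 of 26 of the small subunit (42.3%), NRF1 letters in 10 (23.3%) and 3 (11.5%), YY1 letters in 6 of the large and 6 of the small subunit, Sp1 letters in 17 (39.5%) and 17 (65.4%), and TATA letters in 3 (6.98%) and 2 (7.69%). These are shares of small lists without a test. The median log2 fold change of KO against WT was -0.11 for members with ETS letters and -0.08 for those without, -0.13 and -0.08 for YY1, -0.08 and -0.10 for NRF1, and -0.07 and -0.11 for Sp1, so each of these medians was below 0, with or without the motif.

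Levels of the members were compared with each other per kilobase. Per kilobase of all annotated exonic bases, the large subunit genes ran from 1.39 to 40.5 fragments per kilobase per 1e6 fragments, leaving out Mrpl53 at 0.251 ± 0.216 (SD, n = 6 libraries), with a median of 9.94. Mrpl41, a large subunit protein gained in mitochondria, was highest at 40.5 ± 3.18, followed by Mrpl12, the stalk protein that contacts translation factors, at 24.5 ± 3.24 and Mrpl28 at 21.3 ± 2.56. The lowest after Mrpl53 were Mrpl23 at 1.39 ± 0.212 and Mrpl33 at 2.45 ± 0.204. The small subunit genes ran from 2.09 to 28.2 with a median of 7.10, led by Mrps21 at 28.2 ± 2.43, Mrps12, a protein of the decoding centre, at 22.1 ± 2.68, and Mrps23 at 17.5 ± 1.51. At the low end of the small subunit were Mrps35 at 2.09 ± 0.166, Mrps30 at 2.89 ± 0.255 and Mrps10 at 3.12 ± 0.155. The SD is over KO and WT together, and Mrpl12 and Mrpl28 differed by less than the sum of their SDs.

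This order depends on the length used. Per kilobase of the median protein-coding transcript, a scale chosen after seeing the data, Mrpl20 (64.5 ± 5.92), Mrpl48 (63.2 ± 4.72) and Mrpl41 (61.2 ± 4.79) led the large subunit, and Mrps17 (66.8 ± 1.82), Mrps21 (51.4 ± 4.44) and Mrps18a (46.1 ± 2.52) led the small subunit. The medians were then 17.6 for the large and 13.2 for the small subunit. Across the 78 genes the 2 scales had a Spearman correlation of 0.587, which is given as a description, since both hold the same counts. Mrpl41 and Mrps21 were among the 3 highest of their subunit on each scale.

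**Figure D1:**
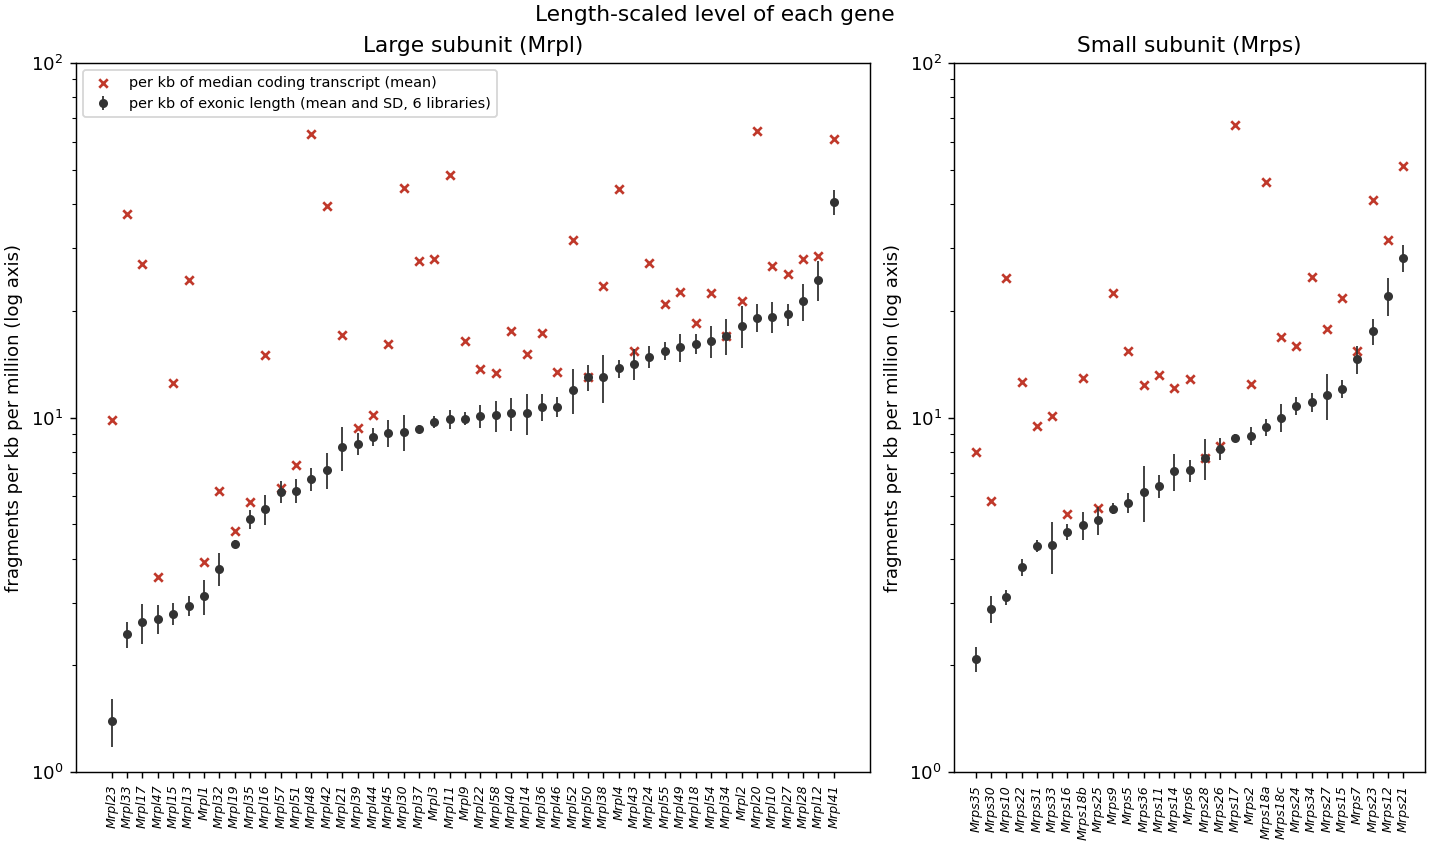
Level of each gene on a log axis, in fragments per kilobase per 1e6 fragments, for 48 large subunit genes (left, without Mrpl53) and 29 small subunit genes (right), ordered by the level per kilobase of exonic length. Black points with bars are the mean and SD of the 6 libraries per kilobase of exonic length, and red crosses are the means per kilobase of the median coding transcript; Mrpl41 and Mrps21 are highest in black, and Mrpl20 and Mrps17 in red.

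The design asks which genes differ between KO and WT prefrontal cortex. Among the mitoribosomal protein genes most fold changes were small and below 0, and no gene passed the adjusted threshold of 0.05 in limma-voom. The lowest adjusted p of a member was 0.635, and the share of all 19084 genes tested that passed was 0%, although 1492 had an unadjusted p under 0.05. At an unadjusted p under 0.05, 2 members were lower in KO (2.56%, against 3.44% of all genes tested) and 0 were higher (against 4.38%), with 2 and 0 also by edgeR and DESeq2. The share of members lower was below that of all genes in this fit and above it in 11 of 18 other settings, among them 17.9% against 6.40% without WT replicate 3 and 6.41% against 3.14% without KO replicate 2, so its place beside all genes depends on the libraries and settings used.

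The direction of the fold changes was less even. In KO, 59 of the 78 members had a log2 fold change below 0 (75.6%, against 48.1% of all genes tested), and the median was -0.09, a change of -5.92%, against 0.01 over all genes. Members are not independent replicates of the genotype, and this imbalance has no test here. CPM values of the groups did not overlap for 10 members that were lower in KO (12.8%, against 6.29% of all genes tested) and for 3 that were higher (3.85%, against 6.72%). The 95% interval of the fold change held 0 for 76 of the 78. Leaving out Mrpl53, the fold changes ran from -0.30 to 0.33 on the log2 scale with SEs from 0.07 to 0.18, and all 77 intervals lay within 1 of 0 and 71 of them within 0.5.

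**Figure D2:**
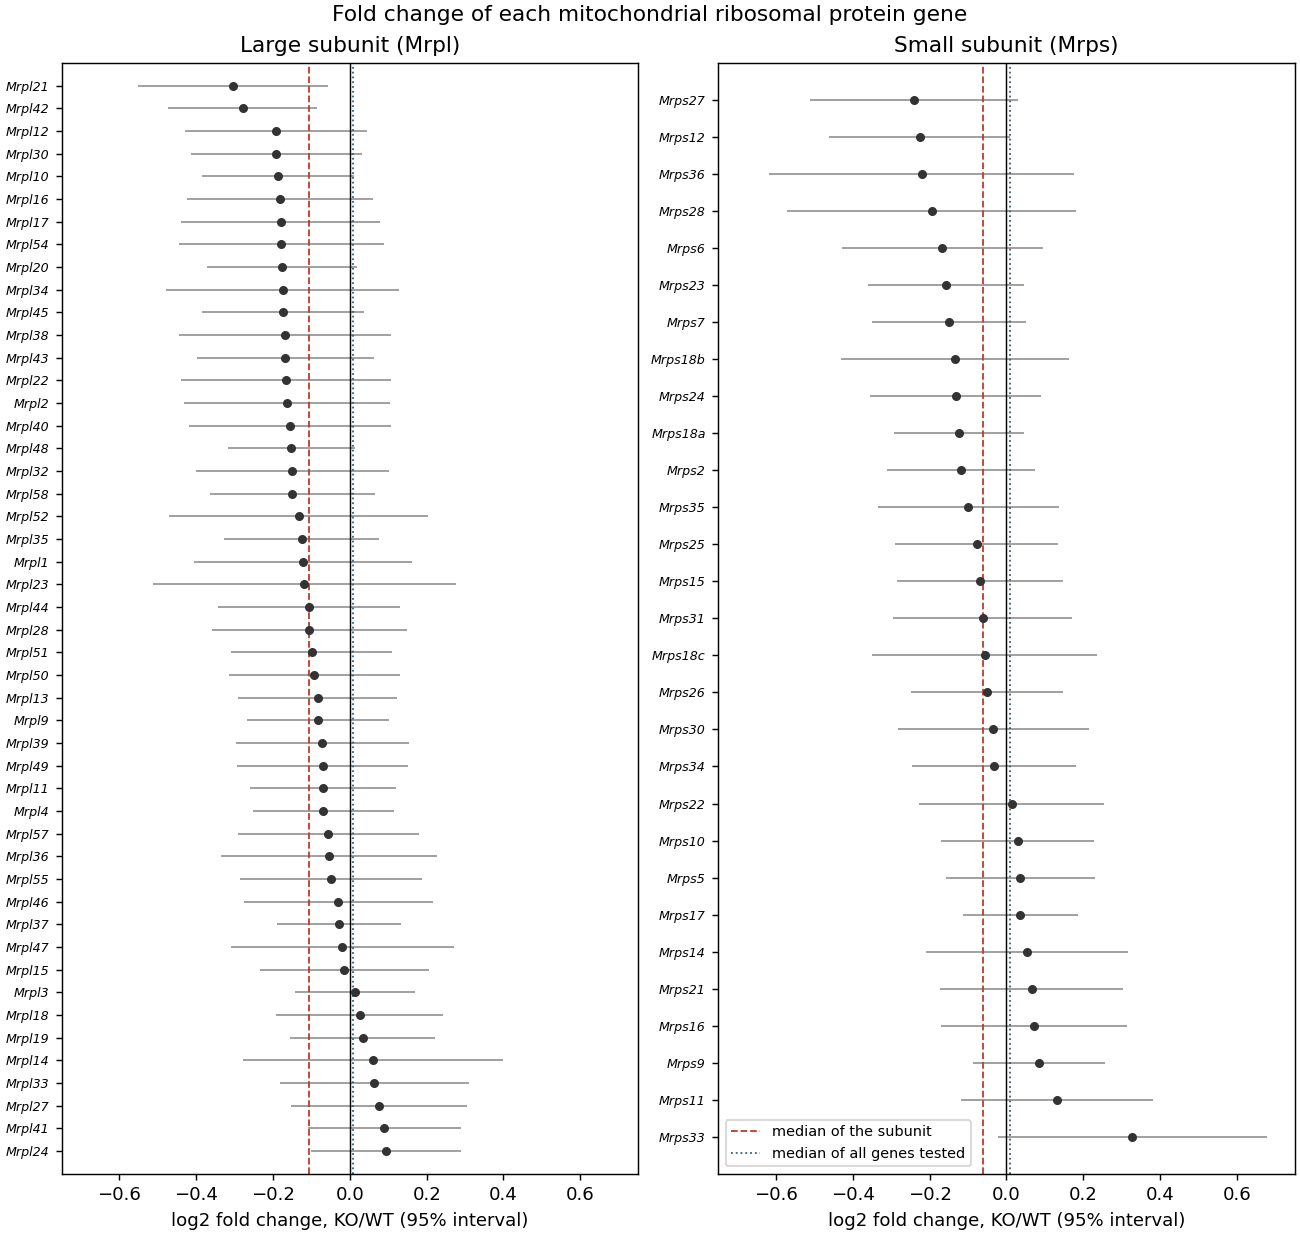
Log2 fold change of KO against WT (points) with its 95% limma-voom interval (bars) for 48 large subunit genes (left, without Mrpl53) and 29 small subunit genes (right). The red dashed line is the median of the subunit (-0.11 and -0.06) and the blue dotted line that of all genes tested (0.01); the intervals of Mrpl21 and Mrpl42 lie wholly below 0.

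Mrpl42 had the lowest p-value of all members. It encodes a large subunit protein with no bacterial homologue and lies on chromosome 10 from 95316667 to 95337802 on the minus strand (GRCm39, ENSMUSG00000062981.6). It was at 24.9, 22.9 and 23.0 CPM in KO and at 30.3, 28.2 and 27.7 CPM in WT, with means of 23.6 ± 1.09 and 28.7 ± 1.41 (SD, n = 3). Each KO library was below each WT library. The log2 fold change was -0.28 (SE 0.09, limma-voom unadjusted p = 0.00845, adjusted p = 0.635), and its unadjusted p stayed between 0.00531 and 0.0334 over 18 other settings.

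Mrpl21, on chromosome 19 from 3332901 to 3342837 on the plus strand (ENSMUSG00000024829.13), encodes the counterpart of bacterial ribosomal protein L21. It was at 14.7, 15.8 and 13.98 CPM in KO and at 20.4, 17.8 and 16.8 CPM in WT. The groups did not overlap, and the library labelled WT replicate 1 was highest. The log2 fold change was -0.30 (SE 0.11, limma-voom unadjusted p = 0.0203, adjusted p = 0.635), with unadjusted p-values of 0.0121 to 0.143 over the same settings. Leaving out WT replicate 1 gave an unadjusted limma-voom p of 0.0849, leaving out KO replicate 3 gave 0.0732, and the 4 libraries with Y-linked expression alone gave 0.143.

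The other 8 members that were lower in every KO library than in any WT library were Mrpl48, Mrpl20, Mrpl45, Mrpl35, Mrpl22, Mrps18a, Mrps6 and Mrps24. Mrpl48, of the central protuberance at the top of the large subunit, was at 54.1, 51.8 and 49.2 CPM in KO and at 61.1, 56.5 and 55.0 CPM in WT (log2 fold change -0.15, SE 0.08, limma-voom unadjusted p = 0.0678). Mrpl20, which binds the large ribosomal RNA, was at 28.8, 29.9 and 31.1 CPM in KO and at 37.2, 32.7 and 31.6 CPM in WT (-0.18, SE 0.09, limma-voom unadjusted p = 0.0722). KO replicate 3 and WT replicate 3 nearly met for Mrpl20, so its separation rests on a gap far smaller than the spread of the WT libraries. For the remaining 6 the log2 fold changes were between -0.17 and -0.12.

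Mrps33, Mrps11 and Mrps9, all of the small subunit, were the 3 members higher in every KO library. Mrps33, a small subunit protein gained in mitochondria, had the highest fold change of the 77 members with a usable level. It was at 7.57, 9.30 and 7.50 CPM in KO and at 7.13, 6.30 and 5.81 CPM in WT, and KO replicate 2 stood above the other libraries. Its log2 fold change was 0.33 (SE 0.16, limma-voom unadjusted p = 0.0637, adjusted p = 0.637). Mrps11, which lines the path of the messenger RNA, was at 15.3, 14.2 and 14.1 CPM in KO and at 13.95, 13.8 and 12.1 CPM in WT (0.13, SE 0.11, limma-voom unadjusted p = 0.275). Mrps9 was at 33.3, 33.00 and 32.3 CPM against 31.7, 30.2 and 31.1 CPM (0.08, SE 0.08, limma-voom unadjusted p = 0.301). For each of these 3 genes the groups were separated by a gap of less than 1 CPM.

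**Figure D3:**
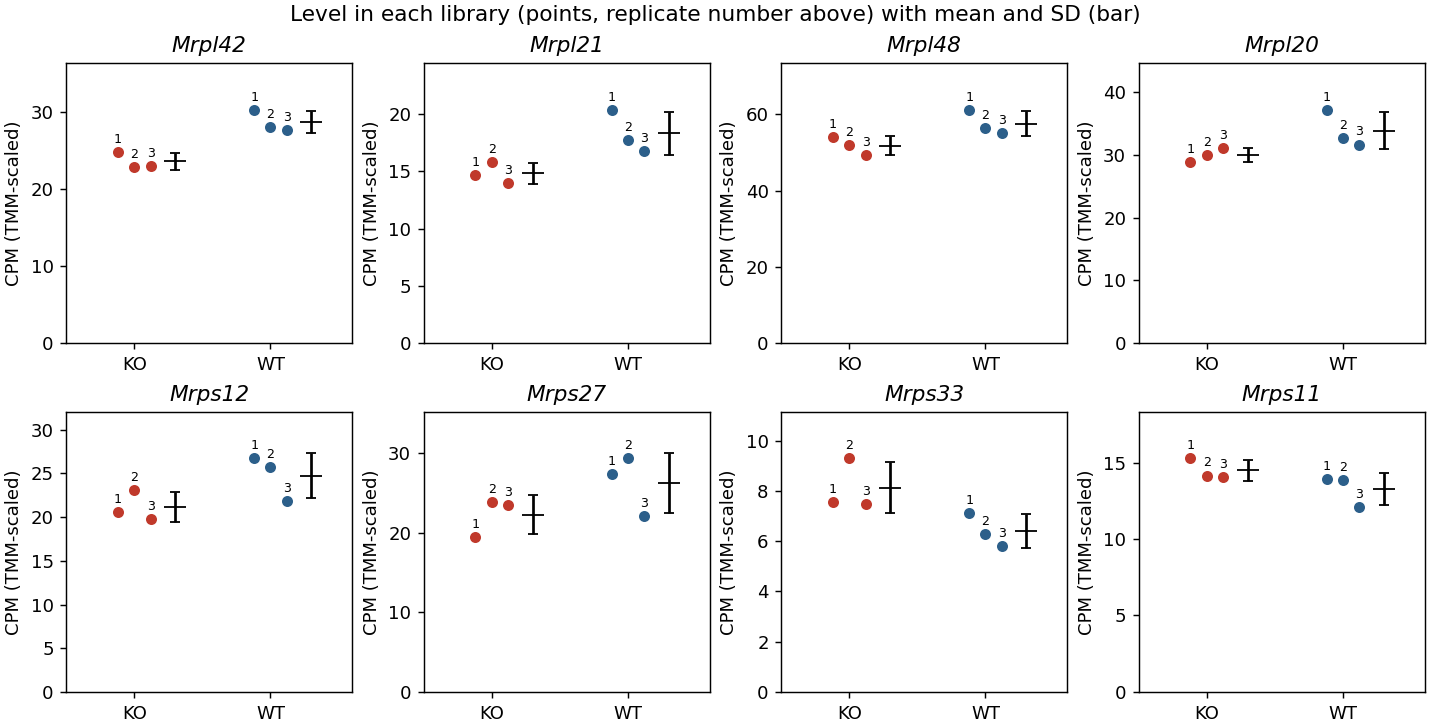
CPM after scaling (vertical axes from 0) in each KO and WT library for 8 members, with the replicate number above each point and the mean and SD of the group as a bar. Mrpl42, Mrpl21, Mrpl48 and Mrpl20 are large subunit genes lower in every KO library, Mrps12 and Mrps27 have the lowest fold changes of the small subunit with overlapping groups, and Mrps33 and Mrps11 have the highest.

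In the large subunit 40 of 49 genes were below 0, with a median log2 fold change of -0.11 (a change of -7.05%), and in the small subunit 19 of 29 were, with a median of -0.06 (-4.19%). Without overlap between the groups, 7 large subunit genes were lower (14.3%, against 6.29% of all genes tested) and 0 higher (against 6.72%), and 3 small subunit genes were lower (10.3%) and 3 higher (10.3%). The large minus small difference of the medians was -0.04, and whether the subunits differ was not tested. The medians were -0.08 and -0.07 without KO replicate 3.

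Symbols do not follow the structure exactly. The products of Mrps18a and Mrps30 sit in the large subunit, and that of Mrps36 has been assigned to the 2-oxoglutarate dehydrogenase complex. With these moved, 42 of 51 large subunit genes were below 0 with a median of -0.11, and 16 of 26 small subunit genes with a median of -0.06. Without WT replicate 1 these were 38 of 51 with a median of -0.04 and 13 of 26 with a median of -0.01. Mrps18a was at 34.1, 33.1 and 32.3 CPM in KO and at 37.5, 35.7 and 35.2 CPM in WT (-0.12, SE 0.08, limma-voom unadjusted p = 0.140). Mrps36 was at 8.79, 5.95 and 7.03 CPM in KO and at 6.96 to 9.41 CPM in WT (-0.22, SE 0.18), with overlapping groups, and Mrps30 at -0.03 (SE 0.11).

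Summed over each subunit the levels were highest in WT replicate 1. The large subunit genes summed to 1125, 1137 and 1102 CPM in KO and to 1266, 1175 and 1147 CPM in WT, and the small subunit genes to 639.6, 621.3 and 616.2 CPM in KO and to 670.3, 652.0 and 622.6 CPM in WT. The KO and WT sums of the large subunit did not overlap, while those of the small subunit did. For the large subunit, the gap between KO replicate 2 (1137 CPM) and WT replicate 3 (1147 CPM) was far smaller than the spread of the WT sums. The ratio of large to small was 1.76, 1.83 and 1.79 in the KO libraries against 1.89, 1.80 and 1.84 in WT, so the groups overlapped in that ratio.

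The library labelled WT replicate 1 was the highest of the 6 for 42 of the 78 members, 30 of the large and 12 of the small subunit, and KO replicate 3 was the lowest for 24. The median deviation of the members from their mean over the 6 libraries was 0.12 on the log2 scale in WT replicate 1, against -0.0041 and -0.0017 in WT replicates 2 and 3 and -0.01, -0.03 and -0.04 in the KO libraries. For the large subunit these values were 0.14, 0.0018 and 0.0028 in WT and -0.02, -0.02 and -0.06 in KO, and for the small subunit 0.09, -0.01 and -0.01 in WT and 0.01, -0.03 and -0.02 in KO. Without WT replicate 1, 52 of 78 members were below 0 (66.7%, against 49.2% of all genes tested), 37 of 49 in the large and 15 of 29 in the small subunit, and the medians were -0.04 and -0.03. That library is also 1 of the 2 with Xist, and among the 4 libraries with Y-linked expression 54 of 77 tested members were below 0, with medians of -0.06 for the large and -0.04 for the small subunit.

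**Figure D4:**
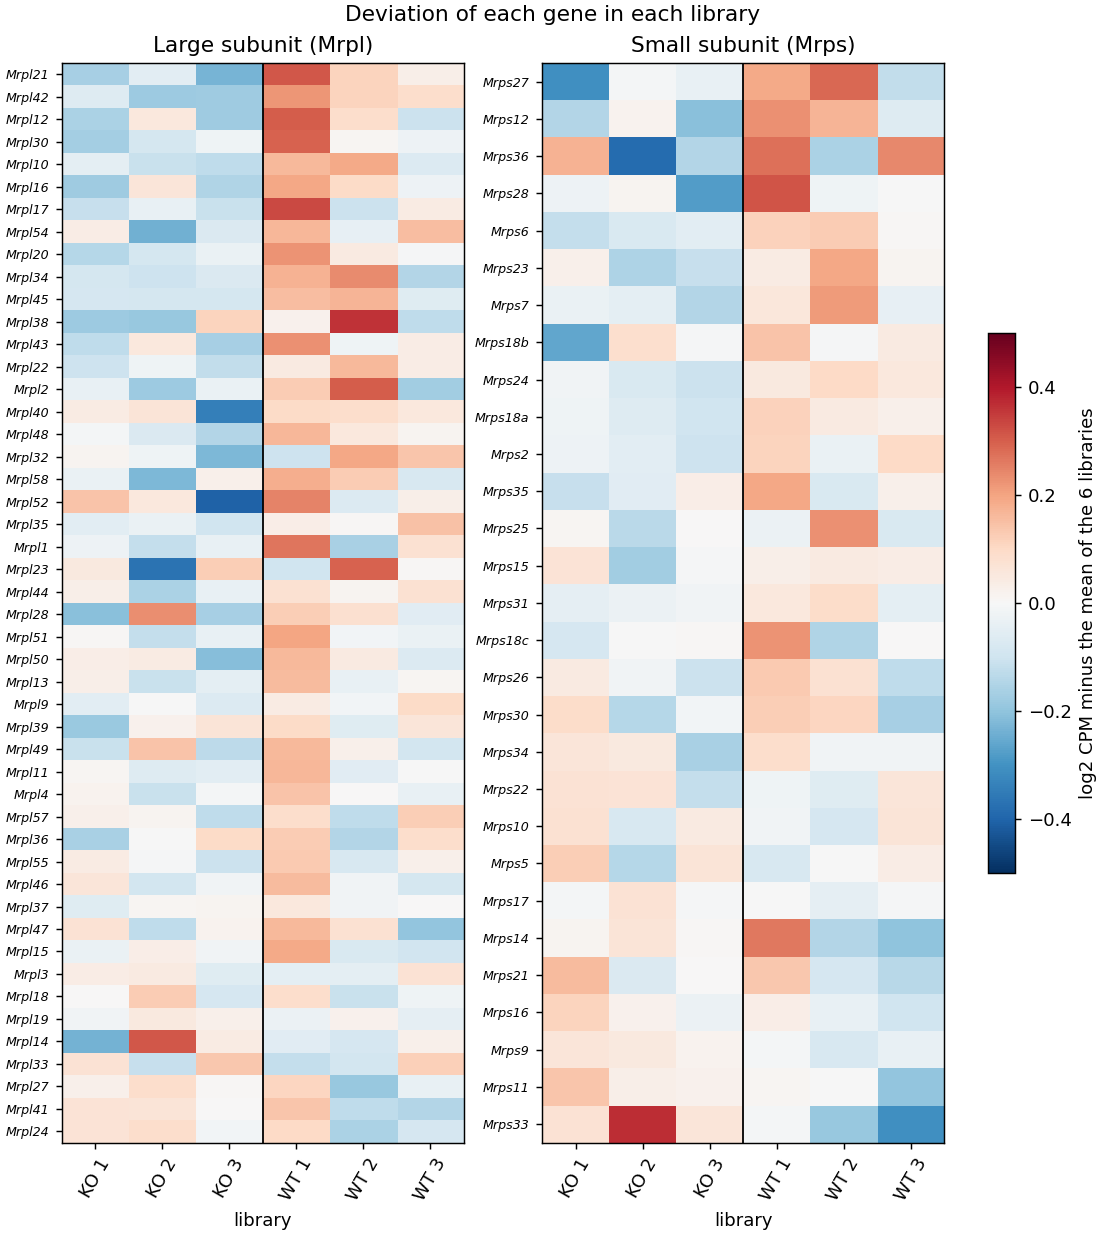
Deviation of each member's log2 CPM from its mean over the 6 libraries (color, red above and blue below), with KO libraries left and WT libraries right of the line, for the large (left) and small (right) subunit in the order of their fold changes and without Mrpl53. The column of WT replicate 1 is red for most genes, in which it was the highest library for 42 of 78 members.

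Grouped by their place in the ribosome, most members of the large subunit lists were below 0 without passing a test. The L1 and L7/L12 stalks reach out to transfer RNAs and translation factors, and all 4 of their genes were below 0 (median -0.15), namely Mrpl10 at -0.19 (SE 0.09, limma-voom unadjusted p = 0.0624), Mrpl12 at -0.19 (SE 0.11), Mrpl1 at -0.12 (SE 0.13) and Mrpl11 at -0.07 (SE 0.09). Mrpl10 was at 31.6, 30.3 and 30.0 CPM in KO and at 36.6, 37.3 and 31.2 CPM in WT. Only WT replicate 3 reached down into the range of the KO libraries. The median deviation of the 4 genes was 0.22 in WT replicate 1, 0.02 and -0.03 in the other WT libraries and -0.09 to -0.04 in KO, and without WT replicate 1 their median log2 fold change was -0.05, with Mrpl12 at -0.09, Mrpl1 at -0.02 and Mrpl11 at -0.0057.

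Of 6 genes for the exit tunnel and its anchor on the inner membrane, 5 were below 0 (median -0.14). Mrpl45, the anchor, was at 22.10, 22.03 and 22.02 CPM in KO and at 26.1, 26.4 and 22.4 CPM in WT (-0.17, SE 0.10), again with WT replicate 3 beside the KO libraries. Mrpl17 was at -0.18 (SE 0.12), Mrpl22 at -0.17 (SE 0.13), Mrpl23 at -0.12 (SE 0.18) and Mrpl47 at -0.02 (SE 0.13), while Mrpl24 was at 0.09 (SE 0.09). The central protuberance, which contacts the small subunit and the transfer RNAs, also had 5 of 6 genes below 0 (median -0.15), with Mrpl38 at -0.17 (SE 0.13), Mrpl40 at -0.16 (SE 0.12), Mrpl48 at -0.15, Mrpl58, which also acts as a peptidyl-tRNA hydrolase, at -0.15 (SE 0.10), Mrpl46 at -0.03 (SE 0.11) and Mrpl18 at 0.03 (SE 0.10). Without WT replicate 1, 4 of 6 genes were below 0 in each of these lists, with medians of -0.10. Single libraries carried some of these values, as Mrpl38 was at -0.03 without WT replicate 2 and Mrpl40 at -0.03 without KO replicate 3. Over all lists, 21 of 34 members named with a fold change came over 1.5 times nearer to 0, or changed sign, when some library was left out.

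In the small subunit, 3 of 5 genes of the decoding centre and the messenger RNA path were below 0 (median -0.13). Mrps12 was at 20.6, 23.1 and 19.8 CPM in KO and at 26.7, 25.7 and 21.8 CPM in WT, so KO replicate 2 and WT replicate 3 crossed. Its log2 fold change was -0.23 (SE 0.11, limma-voom unadjusted p = 0.0581), against -0.15 (SE 0.09) for Mrps7, -0.13 (SE 0.10) for Mrps24, 0.04 (SE 0.09) for Mrps5 and 0.13 for Mrps11. The 3 Mrps18 paralogues, which occupy different sites in the ribosome, were at -0.12 (Mrps18a), -0.13 (Mrps18b, SE 0.14) and -0.06 (Mrps18c, SE 0.13). The decoding list kept 3 of 5 genes below 0 (median -0.14) without WT replicate 1, and the paralogues had 2 of 3 (median -0.09).

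Split by descent, the genes with a bacterial homologue were below 0 in 23 of 30 cases in the large subunit (median -0.09) and in 8 of 16 in the small subunit (median -0.01). Those gained in mitochondria were below 0 in 19 of 21 cases in the large subunit (median -0.11) and in 8 of 10 in the small subunit (median -0.07). Without WT replicate 1 these counts were 21 of 30 and 7 of 16 for the genes with a bacterial homologue (medians -0.04 and 0.01) and 17 of 21 and 6 of 10 for the others (medians -0.04 and -0.04).

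A further 5 mitoribosomal proteins carry other symbols. Gadd45gip1 of the large subunit was at 18.6, 19.9 and 17.96 CPM in KO and at 23.2, 24.5 and 18.3 CPM in WT (log2 fold change -0.21, SE 0.12, limma-voom unadjusted p = 0.101). Of the small subunit, Ptcd3 was at 50.02, 46.8 and 44.05 CPM in KO and at 41.6, 43.3 and 43.4 CPM in WT (0.14, SE 0.08, limma-voom unadjusted p = 0.108). Among the others, Chchd1 was at 0.11 (SE 0.16), Dap3, a GTP-binding protein, at -0.05 (SE 0.08) and Aurkaip1 at -0.08 (SE 0.08). Ptcd3 was higher in every KO library, and the other 4 overlapped. KO replicate 3 (44.05 CPM) and WT replicate 3 (43.4 CPM) nearly met for Ptcd3. Among the 4 genes of the small subunit, 1 was thus higher without overlap (25%, against 6.72% of all genes tested) and 0 lower (against 6.29%). Over 18 other settings the log2 fold change was -0.35 to -0.13 for Gadd45gip1 and 0.07 to 0.18 for Ptcd3. The ranges were -0.08 to 0.26 for Chchd1, -0.10 to 0.0098 for Dap3 and -0.13 to -0.05 for Aurkaip1.

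The rest of the mitochondrial translation machinery was more evenly split in direction, without a test of the lists. Of 11 tested translation factors 6 were below 0 (median -0.01), of 24 assembly and ribosomal RNA modification factors 12 (median 0.01), of 20 mitochondrial aminoacyl-tRNA synthetases and amidotransferase subunits 8 (median 0.02), and of 12 genes of mitochondrial transcription and RNA stability 5 (median 0.02). At an unadjusted p under 0.05, 1 gene was higher and 0 lower in each of the first 3 lists, and none in either direction in the fourth. The higher genes were thus 9.09%, 4.17% and 5% of the first 3 lists, against 4.38% higher and 3.44% lower among all genes tested. These were the translation factor Guf1 (0.24, SE 0.08, limma-voom unadjusted p = 0.0130), the assembly factor Mettl17 (0.24, SE 0.09, limma-voom unadjusted p = 0.0178) and the methionyl-tRNA synthetase Mars2 (0.19, SE 0.08, limma-voom unadjusted p = 0.0364), all with an adjusted p of 0.635. Leaving out single libraries took the unadjusted p up to 0.0538 for Guf1 (without WT replicate 2), 0.0730 for Mettl17 (without WT replicate 3) and 0.135 for Mars2 (without KO replicate 2).

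Mettl17 was at 35.1, 33.5 and 33.7 CPM in KO and at 28.6, 31.5 and 26.9 CPM in WT, and Mars2 at 37.3, 39.8 and 36.1 CPM in KO and at 32.8, 31.8 and 34.4 CPM in WT. Neither overlapped between the groups. In the assembly list 2 genes were lower without overlap (8.33%) and 1 higher (4.17%). In the synthetase and amidotransferase list 0 were lower and 2 higher (10%). For the translation factors these counts were 0 and 1 (9.09%), and for the genes of transcription and RNA stability 0 and 2 (16.7%). Among all genes tested these shares were 6.29% lower and 6.72% higher. Without WT replicate 1 the median of the translation factors was -0.07, beside -0.04 for the mitoribosomal genes. Guf1 was at 72.2, 61.2 and 68.6 CPM in KO and at 55.5, 53.9 and 61.4 CPM in WT, with KO replicate 2 and WT replicate 3 almost equal.

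The messenger RNAs that the mitoribosome translates were tested for 11 of 13 genes, of which 3 were below 0 and 8 above (median 0.02). These counts include a gene at a mean of only 0.186 CPM, and the log2 fold changes ran from -1.51 to 0.70. Within the groups the variance of their fragment counts was a median of 497 times that of counting alone, against 1.59 times for the members. Only mt-Nd6, a complex I subunit, had an unadjusted p under 0.05 (9.09% of this list lower, against 3.44% of all genes tested). It was at 54.8, 62.0 and 48.4 CPM in KO and at 66.2, 77.3 and 111 CPM in WT (-0.60, SE 0.16, limma-voom unadjusted p = 0.00237, adjusted p = 0.635). The groups did not overlap and WT replicate 3 stood highest, without which the log2 fold change was -0.39 (limma-voom unadjusted p = 0.00500). These levels are far below the median of the list (5376 CPM), and the libraries were made from polyadenylated RNA. How fully that selection captures mt-Nd6 was not tested, nor whether its fold change is that of the level in the tissue.

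Proteins of mitochondrial import and the matrix were below 0 in 14 of 15 cases (median -0.10), including Hspa9, the matrix chaperone of the import motor, whose KO libraries read 160, 167 and 149 CPM and whose WT libraries read 184, 184 and 164 CPM (-0.16, SE 0.07, limma-voom unadjusted p = 0.0440). In Hspa9 the groups overlapped through KO replicate 2 and WT replicate 3, and its unadjusted limma-voom p was 0.183 without KO replicate 3. Of the import and matrix genes, 2 were lower without overlap (13.3%, against 6.29% of all genes tested) and 0 higher (against 6.72%). The median deviation of this list was 0.11 in WT replicate 1 and 0.06 in WT replicate 2, against -0.03 in WT replicate 3 and -0.07 to -0.02 in KO, so it too was highest in WT replicate 1, and 12 of 15 were below 0 without that library. The ribosomal proteins of the cytosol, with Rpl and Rps symbols, were below 0 in 56 of 77 cases, 5 of them at an unadjusted p under 0.05 (6.49%, against 3.44% of all genes tested), with a median of -0.04. Without WT replicate 1, 48 of 77 were below 0, with a median of -0.03. Their deviation was 0.05 in WT replicate 1, below the 0.08 of WT replicate 3, and 0.07 in KO replicate 1.

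**Figure D5:**
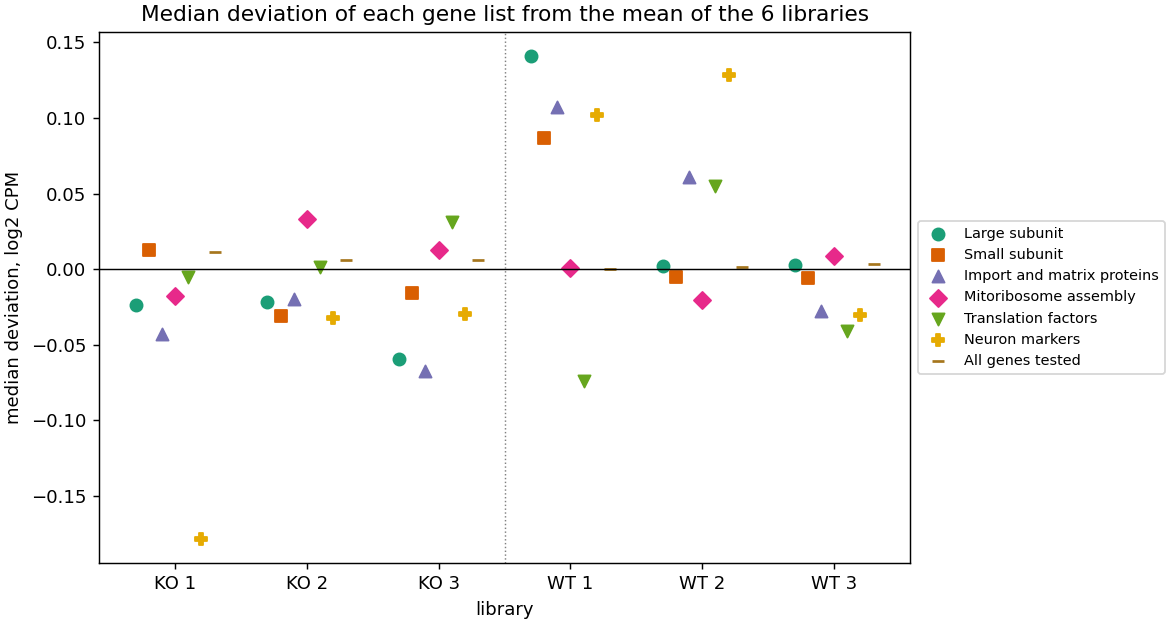
Median deviation of each gene list in each library from the mean of the 6 libraries, in log2 CPM. In WT replicate 1 the large subunit (0.14), the small subunit (0.09) and the import and matrix proteins (0.11) are above 0 while the assembly factors are near 0 and the translation factors at -0.07; neuron markers are lowest in KO replicate 1 (-0.18).

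Markers of the cell types in the tissue also varied between the groups and between single libraries. Neuron markers were below 0 in 10 of 12 cases (median -0.15), and their summed level was 10645 to 11799 CPM in KO and 11485 to 12597 CPM in WT. At an unadjusted limma-voom p under 0.05, 3 neuron markers were lower in KO (25%, against 3.44% of all genes tested), as was 1 microglia marker (10%). In the higher direction there was 1 striatal neuron marker (10%, against 4.38% of all genes tested). Oligodendrocyte markers were above 0 in 9 of 10 cases (median 0.16, summed level 2277 to 2660 CPM in KO and 1783 to 2948 CPM in WT), and striatal neuron markers in 10 of 10 (median 0.36, 341.8 to 449.8 CPM and 255.1 to 427.1 CPM). In WT replicate 1, where the members were highest, the median deviation was 0.10 for neuron, 0.17 for astrocyte, 0.20 for microglia and 0.14 for endothelial markers, and -0.38 for oligodendrocyte, -0.55 for striatal neuron and -0.23 for choroid plexus markers. In WT replicate 2, with the members at -0.0041, the same markers in that order were at 0.13, -0.11, -0.15, -0.14, -0.17, -0.63 and 0.89. In KO replicate 1, with the members at -0.01, they were at -0.18, 0.17, 0.04, 0.0026, -0.11, 0.02 and -0.04. Astrocyte markers were above 0 in 9 of 10 cases (median 0.06, 4963 to 5493 CPM in KO and 4724 to 5484 CPM in WT), and microglia and endothelial markers were each below 0 in 6 of 10, at 400.9 to 432.4 and 376.4 to 473.4 CPM and at 306.3 to 326.1 and 278.5 to 355.2 CPM. Choroid plexus markers summed to 7.79 to 16.7 CPM in KO and 9.58 to 37.0 CPM in WT, with Folr1 too low to be tested. Without WT replicate 1 the count below 0 was 10 of 12 for neuron (median -0.13), 3 of 10 for oligodendrocyte (0.03), 3 of 10 for striatal neuron (0.24), 1 of 10 for astrocyte (0.13), 4 of 10 for microglia (0.07), 5 of 10 for endothelial (-0.0094) and 6 of 7 for choroid plexus markers (-0.41). The part of these differences in the values of the mitoribosomal genes was not tested.

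For many members counting error was a large part of the spread between libraries of a group, but not all of it. Within the groups the variance of the fragment counts was a median of 1.59 times that of counting alone, 1.63 in the large and 1.25 in the small subunit, and over 2 times for 30 of the 78. At this depth and with 3 libraries a group, the 95% interval of a member's log2 fold change reached a median of 0.23 to either side. Changes well under that size in a single member were not detectable at this depth and number of libraries.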

How the data were processed

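The authors deposited 1 table of raw counts per library. Per the file headers and the labels, reads were aligned with STAR 2.7.9a, and read pairs (fragments) over exons were assigned to genes by featureCounts 1.6.0 (paired, strand option 2) on GENCODE M31 (GRCm39). The published methods give an older build, and gene coordinates follow the headers. Fragments that mapped to several places or genes were not counted and nothing was normalized or pooled. Symbols came from GENCODE M21 by gene identifier (52073 of 56923 genes).

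Groups and replicate numbers came from the titles. The filter (at least 6 fragments in at least 1 library, 19084 genes) and the use of edgeR, voom and limma follow the published methods. TMM scaling (edgeR 4.0.16, limma 3.58.1, R 4.3.3), a two-sided test, Benjamini-Hochberg adjustment over all genes and a threshold of 0.05 were set here. CPM are TMM-scaled, and fold changes are log2(KO/WT). The scripts were tested on simulated data. Promoter sequences came from RefSeq (GRCm38.p6).

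Named were Pla2g4e, the members at an unadjusted p under 0.05, the 3 highest and 3 lowest levels of each subunit, the genes of the lists by role and structure, and up to 3 genes at an unadjusted p under 0.05 of each pathway list. Members without overlap between the groups, Mrps27 and the leaders on the other length scale were named after their values were seen. The members and lists were chosen with earlier results of these data known. Lists were described by counts and medians, with no test of their own. Other settings tried were edgeR's quasi-likelihood test, DESeq2 1.42.0, other scalings and filters, quality weights, a replicate block, leaving out each library (for lists other than the subunits, only WT replicate 1, chosen after seeing the data), a covariate for Y-linked expression, only the libraries with it, and removal of trends with length and level (lowess span 0.3). Intervals cover the spread between libraries, and fragments carry no molecular identifiers. Mtrfr and Phb1 had no matching symbol.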

Additional observations from a re-analysis of the deposited data

How the results depend on the processing

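No member passed the adjusted threshold under any of the 18 other settings run for that count. The 2 members lower in KO at an unadjusted p under 0.05 became 5 with library quality weights (6.41%, against 3.44% of all genes), 5 with the covariate for Y-linked expression (6.41% against 4.60%), and 1 to 14 when single libraries were left out. It was 14 without WT replicate 3 (17.9% against 6.40%), 5 without KO replicate 2 (6.41% against 3.14%), and 1 without KO replicate 3 (1.28% against 3.15%) or WT replicate 1 (1.28% against 2.32%). The count of 0 higher in KO (4.38% of all genes) became 1 with scaling by library totals only (1.28%, against 5.61% of all genes) and 1 with only the 4 libraries with Y-linked expression (1.30% against 2.36%). It was 0 to 1 when single libraries were left out, with the 1 arising without WT replicate 1 (1.28% against 3.06%). The median log2 fold change of the large subunit was -0.13 to -0.043 and that of the small subunit -0.11 to -0.026 over the fits without 1 library, with -0.043 for the large subunit without WT replicate 1 and -0.11 for the small subunit without WT replicate 3. With the replicate block the medians were -0.10 and -0.07, with 3 members lower at an unadjusted p under 0.05 (3.85%, against 3.62% of all genes). Deviations from the group means of libraries with the same number correlated at 0.23, 0.05 and -0.01, so the numbers were not read as pairs. The cause of these shifts was not tested.

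Some named fold changes changed sign in some settings, including Mrps18b (-0.13 in the main fit), Mrpl23 (-0.12) and Chchd1 (0.11). With library totals only Mrpl47 was at 0.0050. With only the 4 libraries with Y-linked expression Mrpl47 was at 0.011, Dap3 at 0.0098, Mrps18b at 0.017, Mrps18c at 0.075 and Mrps5 at -0.054. Over the fits without 1 library the ranges were -0.021 to 0.11 for Mrps5, -0.032 to 0.077 for Mrpl18, -0.21 to 0.015 for Mrpl23, -0.086 to 0.041 for Mrpl46, -0.13 to 0.057 for Mrpl47, -0.13 to 0.018 for Mrps30, -0.14 to 0.044 for Mrps18c and -0.076 to 0.26 for Chchd1. The other named fold changes kept their direction in all 18 settings. Dividing by the length of the median coding transcript in place of the exonic length moved the level of Mrpl41 to 61.2 and that of Mrps21 to 51.4. Mrpl53 had the fewest fragments, with at most 7 in a library. Depth also limited the changes that could be detected in the other members.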
